A study of Mus musculus with 4 samples.

Results

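Secreted and mucus-associated factors with which gut and stomach epithelia guard their surface were followed here in mouse gastric organoids, stomach epithelial cells grown as small structures in gel. The set holds 10 genes of the 45777 in the files, taken by gene symbol: Fcgbp, Agr2, Agr3, Dmbt1, Spdef, Spink4, Pigr, Lcn2, Wfdc2 and Lgals4. They were selected partly on the measured expression of Fcgbp and Dmbt1, which is higher in the Smad4 knockouts, so the knockout and control values of all 10 are given as a description, without a test. All 4 libraries carry knockouts of Cdh1, the gene of E-cadherin, and of Trp53, the gene of p53. The 2 libraries with the genotype label Control have these knockouts alone, and the 2 labelled Smad4 Knockout carry a knockout of Smad4 as well, a transducer common to TGF-beta and BMP signalling. Each library came from a differently named organoid line. The labels do not give the age or strain of the mice, how the alleles were made, whether a line is 1 clone, or whether the lines came from separate animals, so p-values measure only the spread between these libraries, which may be technical. Cultures were kept with 5% fetal bovine serum and L-WRN conditioned medium, then spent 2 days without either, in medium with B27 and N2, before total RNA was taken.

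Goblet cells and the mucous cells of the stomach make the mucus gel and load it with proteins that bind, trap or starve microbes. Spdef, an ETS-family transcription factor, is known for driving the maturation of these secretory cells. Agr2 is a protein disulfide isomerase of the endoplasmic reticulum that gel-forming mucins need for folding. Fcgbp is a very large mucus protein with repeated von Willebrand D domains, and Dmbt1 a scavenger-receptor glycoprotein that binds bacteria. Pigr carries polymeric IgA and IgM through epithelial cells into the lumen.

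Depth was high and similar, with 85649781 to 99845702 counts per library. Smad4 was at 94.5 and 103 CPM (counts scaled by library size and composition) in controls, against 54.4 and 52.9 CPM in knockouts, so transcript was lower but still present in the libraries labelled Smad4 Knockout. The files give 1 value per gene, so the deleted part of Smad4 was not checked. Cdh1 was at 26.02 to 44.1 CPM and Trp53 at 4.69 to 6.98 CPM over the 4 libraries, and no library with these genes intact was analysed here. Epithelial markers were abundant, with summed levels of 9022 to 10128 CPM for Epcam, Krt8, Krt18, Krt19, Cldn4 and Cldn7. Of the stomach cell types, some pit and neck cell markers were present. The neck cell marker Muc6 was at no more than 0.163 CPM, and the pit cell marker Muc5ac at no more than 2.35 CPM. Both were named after their values were seen. The chief cell markers Pgc and Cblif and the parietal cell markers Atp4b and Slc26a7 had 0 counts in every library. The parietal marker Atp4a was at 3.54 to 4.02 CPM, and the chief cell markers Bhlha15 and Chia1 were at no more than 0.539 and 0.405 CPM. Mitochondrial genes took 0.941% of the counts in Control 1, 1.18% in Control 2, 0.954% in Smad4 Knockout 1 and 1.48% in Smad4 Knockout 2.

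Promoter windows of 300 bases, from 250 before to 50 after the annotated gene start (RefSeq, GRCm38.p6, the build also called mm10), were found for 8 of the 10 genes. Dmbt1 and Spink4 had no entry. The windows of Fcgbp, which had the largest fold change between the genotypes with all 4 libraries, of Agr2 and Agr3, neighbours of which 1 had no counts, and of Lcn2, which did not separate the genotypes, are shown 5′ to 3′ on the strand of the gene. Capitals mark the SMAD half-site CAGAC and the CDX motif TTTATG, on either strand.
Fcgbp: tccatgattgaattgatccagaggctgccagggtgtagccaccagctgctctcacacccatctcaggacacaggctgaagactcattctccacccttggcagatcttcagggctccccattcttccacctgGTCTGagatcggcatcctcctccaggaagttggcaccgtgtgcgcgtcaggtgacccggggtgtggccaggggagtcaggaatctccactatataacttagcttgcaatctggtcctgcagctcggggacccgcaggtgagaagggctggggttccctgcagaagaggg
Agr2: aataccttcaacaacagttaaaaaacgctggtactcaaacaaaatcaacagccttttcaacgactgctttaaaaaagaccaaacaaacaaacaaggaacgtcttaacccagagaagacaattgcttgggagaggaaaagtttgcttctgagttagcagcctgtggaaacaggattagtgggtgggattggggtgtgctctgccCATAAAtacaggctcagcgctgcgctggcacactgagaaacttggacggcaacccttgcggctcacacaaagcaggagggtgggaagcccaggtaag
Agr3: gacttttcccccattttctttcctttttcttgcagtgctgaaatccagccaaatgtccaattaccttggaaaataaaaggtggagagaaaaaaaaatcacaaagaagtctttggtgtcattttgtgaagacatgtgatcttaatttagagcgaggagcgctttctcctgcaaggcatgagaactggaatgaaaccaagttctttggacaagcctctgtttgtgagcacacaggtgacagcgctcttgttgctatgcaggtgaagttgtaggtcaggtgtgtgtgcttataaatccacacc
Lcn2: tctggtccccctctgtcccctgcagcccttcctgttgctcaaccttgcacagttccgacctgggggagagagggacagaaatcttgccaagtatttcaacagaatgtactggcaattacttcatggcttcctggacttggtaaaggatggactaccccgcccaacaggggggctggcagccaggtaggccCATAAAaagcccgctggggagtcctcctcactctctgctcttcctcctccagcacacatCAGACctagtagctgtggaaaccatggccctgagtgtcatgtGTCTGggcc
These windows lie at chr7:28070986-28071285 on the plus strand (Fcgbp), chr12:35992675-35992974 on the plus strand (Agr2), chr12:35925371-35925670 on the plus strand (Agr3) and chr2:32387690-32387989 on the minus strand (Lcn2).

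CAGAC was present in 4 of the 8 windows (Fcgbp, Lgals4, Spdef and Lcn2), against 49.6% of all 32851 promoter windows. TTTATG was present in 3 of the 8 (Agr2, Spdef and Lcn2), against 11.9% of all windows. In Agr2 the TTTATG match begins 47 bases before the gene start, and in Fcgbp the CAGAC match begins 119 bases before it. The GC-rich SMAD motif GGCGCC was in 1 window, that of Wfdc2, against 11.9% of all. The ETS core GGAA was in all 8 windows, as in 96% of all windows. The SMAD palindrome GTCTAGAC (0.213% of all windows), the SPDEF motif CCGGAT (6.04%), the FOXA motif TGTTTAC (3.65%), the HNF4 motif CAAAGTCCA (0.475%), 1 fixed-letter NF-kB site (0.0883%) and the broader NF-kB consensus (8.46%), each searched on both strands, had no match in the 8 windows. The fixed-letter site is also a match to that consensus. A match here is a description of letters, and no match says only that these letters are not in this window. The starts used for Lgals4 and Spdef lie inside the gene spans given below. The windows ranged from 42.3% GC in Agr3 to 65.3% in Wfdc2, around a median of 52.7% for all windows, and Wfdc2 had the most CpG dinucleotides with 16, against a median of 7.

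The members spanned a wide range of levels, compared here in TPM, which corrects for transcript length and library size. Wfdc2, which encodes a small secreted protein with whey acidic protein domains, was at 1627 and 1787 TPM in controls, against 1720 and 1722 TPM in knockouts. By mean TPM it ranked 53 among 21949 protein-coding genes, and it held from 71.2% to 87.8% of the summed TPM of the members. Lgals4, a galectin of gut epithelium that binds glycans, followed at 270 and 196 TPM in the controls and 361 and 533 TPM in the knockouts, and ranked 326. Both stood clear of all other members in every library. Agr2 (14.1 to 60.9 TPM), Fcgbp (3.02 to 31.1 TPM), Lcn2 (14.1 to 20.8 TPM) and Dmbt1 (7.43 to 24.8 TPM) came next. Agr2 was above Dmbt1 in every library, while the order of every other pair among these genes changed between libraries. Spdef (5.81 to 12.6 TPM), Pigr (3.07 to 11.03 TPM) and Spink4 (2.78 to 10.8 TPM) had the lowest means. Each lay below Agr2, Lcn2 and Dmbt1 in every library. Spink4 was also below Spdef and Pigr in every library, while the order of Spdef and Pigr changed. In Control 2 Fcgbp lay below both Spdef and Pigr. Agr3, the close relative of Agr2, had 0 counts in all 4 libraries, for which the one-sided 95% upper limit is about 3 counts per library.

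**Figure D1:**
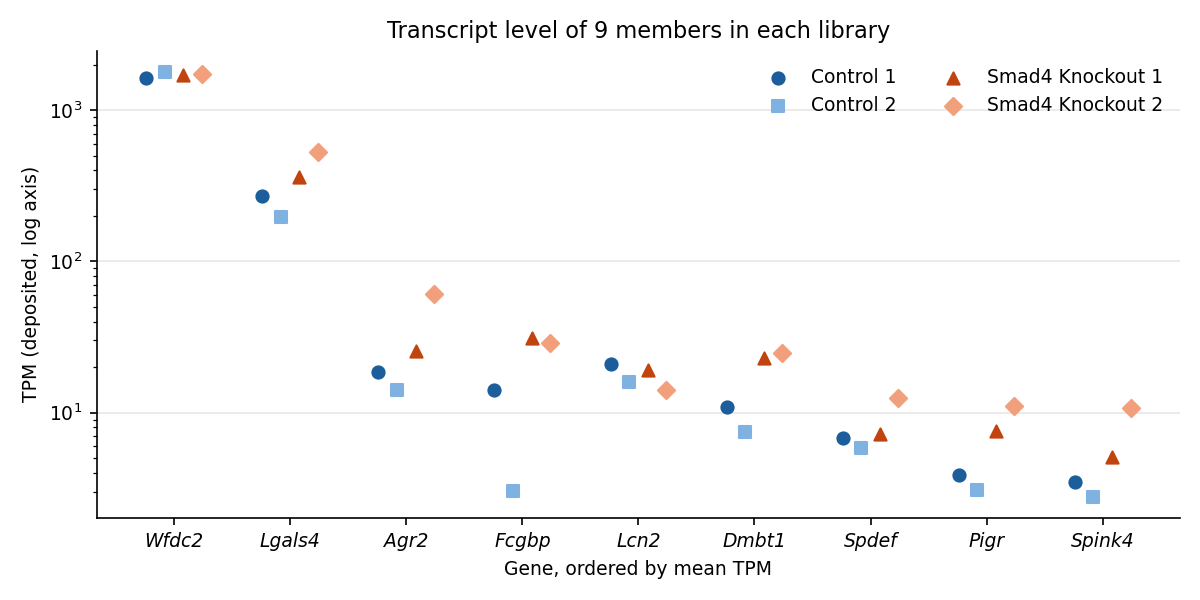
Deposited TPM (vertical log axis) of 9 members (horizontal axis, ordered by mean TPM), with 1 point per library and no error bars since each group has 2 libraries. Wfdc2 sits between 1627 and 1787 TPM in all libraries, while Fcgbp runs from 3.02 TPM in Control 2 to 31.1 TPM in Smad4 Knockout 1; Agr3, at 0, cannot be drawn on a log axis.

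Of the 10 members, 9 passed the filter on low counts and entered the fit. In 6 of these 9 (Fcgbp, Dmbt1, Pigr, Agr2, Spink4 and Lgals4) both knockout libraries lay above both controls in CPM, where 18.2% of all 18115 genes tested did so. In 0 of the 9 did both knockouts lie below both controls, against 18.6% of all genes. The log2 fold change of knockout over control was above 0 in 7 members and below 0 in Wfdc2 and Lcn2, with a median of 1.32 against -0.00 for all genes tested, where 49.5% were above 0. The same 6 genes had their CPM values in the order Control 2, Control 1, Smad4 Knockout 1, Smad4 Knockout 2 from lowest to highest, an order held by 7.03% of all genes. Since this contrast took part in the choice of the genes, nothing is read from these shares. Over all genes, edgeR's quasi-likelihood test with Benjamini-Hochberg adjustment called 0 genes higher and 0 lower at an adjusted p of 0.05 (0%), while an unadjusted p under 0.05 was reached by 603 higher (3.33%) and 550 lower (3.04%) genes, 6.36% in all. DESeq2 called 96 genes higher (0.53%) and 31 lower (0.171%). No call on a member is given, since the contrast that chose the members is the one these tests use.

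**Figure D2:**
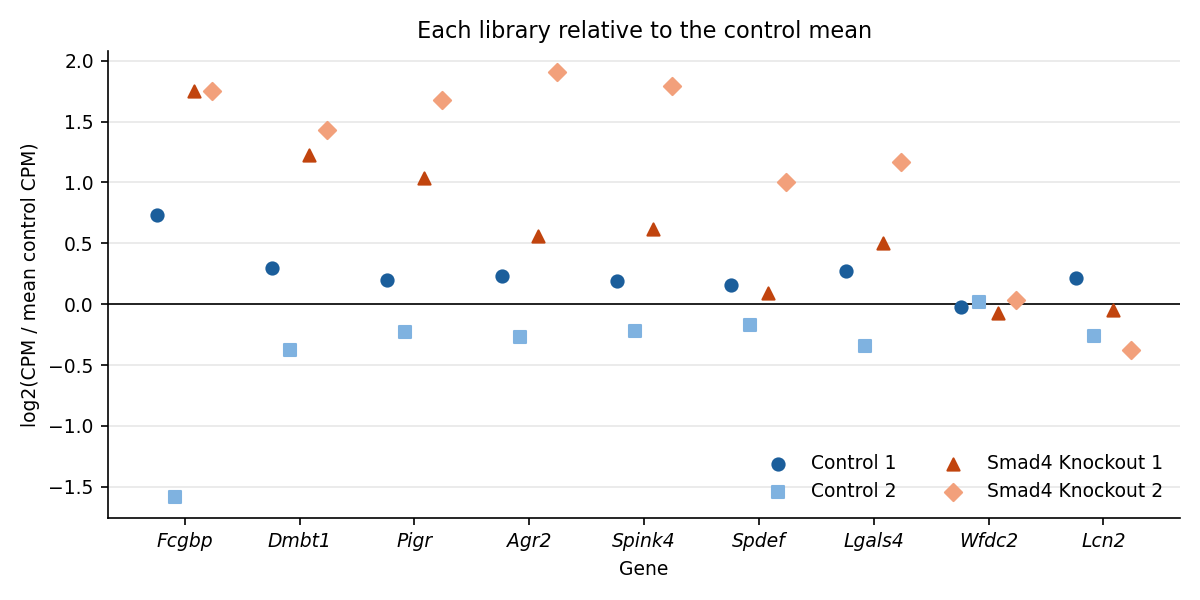
CPM of each library divided by the mean control CPM, on a log2 scale (vertical axis), for 9 members (horizontal axis), with 1 point per library. For Fcgbp, Dmbt1, Pigr, Agr2, Spink4 and Lgals4 both knockout points lie above both control points, and for Wfdc2 and Lcn2 the points of the genotypes are interleaved.

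Spdef, the transcription factor of the set (gene ID 30051, chromosome 17, 27714446 to 27731003, minus strand), was at 8.04 and 6.40 CPM in controls, against 7.69 and 14.4 CPM with Smad4 knocked out. Smad4 Knockout 1 lay between the controls, and Smad4 Knockout 2 alone was high. The log2 fold change was 0.62 (SE 0.32), falling to 0.11 when Smad4 Knockout 2 was left out and reaching 0.998 without Smad4 Knockout 1. In TPM, which rests on another scaling, both knockouts lay above both controls, by a small margin in Smad4 Knockout 1 (7.26 TPM against 6.83 TPM in Control 1).

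Agr2 (gene ID 23795, chromosome 12, 35992925 to 36004081, plus strand) was at 9.11 and 6.43 CPM in controls, against 11.4 and 29.1 CPM with Smad4 knocked out. The groups did not overlap, but Smad4 Knockout 2 stood 2.55 times above Smad4 Knockout 1, a gap larger than the step from the controls to Smad4 Knockout 1. Group means were 7.77 ± 1.89 CPM (SD, n = 2) for controls and 20.3 ± 12.5 CPM (SD, n = 2) for knockouts, with a log2 fold change of 1.38 (SE 0.44) that was 0.57 without Smad4 Knockout 2. Agr3 (gene ID 403205, 35925621 to 35949737 on the same strand) ends 43.2 kb before Agr2 begins, and it gave no count where Agr2 gave 596 to 2823. Tspan13, the next protein-coding gene on the other side of Agr2, was at 52.3 and 44.2 CPM in controls, against 45.4 and 55.1 CPM with Smad4 knocked out.

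Fcgbp (gene ID 215384, chromosome 7, 28071236 to 28120864, plus strand) was at 71.7 and 14.4 CPM in controls, and both knockout libraries stood at 145 CPM. The knockouts were thus alike, within a ratio of 1.001, while Control 1 was 4.98 times above Control 2. Of the 10803 genes that averaged 5 CPM or more and had counts in every library, 2 genes (0.0185%) had a larger difference between the controls, whereas 99.2% had a larger difference between the knockouts. Group means were 43.04 ± 40.5 CPM (SD, n = 2) for controls and 145 ± 0.150 CPM (SD, n = 2) for knockouts. The log2 fold change came to 1.75 (SE 0.66). It was 3.33 without Control 1 and 1.01 without Control 2, so its size differed with the control left out, while both knockouts were above both controls. The columns of Control 2 are headed by its title with an added 2, and whether they hold a repeat run of that line is not stated. The counts behind these values, from 1334 to 14028, are far above the level where counting error would matter.

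A further gene, 9530053A07Rik, which RefSeq lists with the synonym FCGBP, begins 8.60 kb past the end of Fcgbp and was named after its values were seen. It was at 2.00 and 1.92 CPM in controls, against 2.99 and 3.95 CPM with Smad4 knocked out (a log2 fold change of 0.82, SE 0.27). Its 2 control libraries were alike, unlike those of Fcgbp. Reads shared between such related genes could have been split by the counting, which leaves both values uncertain to that extent. On the other side of Fcgbp, Psmc4, a proteasome subunit gene, was at 183 and 160 CPM in controls, against 172 and 177 CPM with Smad4 knocked out.

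Spink4, a small Kazal-type protease inhibitor made by goblet cells (gene ID 20731, chromosome 4, 40920056 to 40931395, plus strand), was at 0.878 and 0.658 CPM in controls, against 1.18 and 2.66 CPM with Smad4 knocked out. It had the lowest counts of the 9, at 86 and 61 in the controls (exact Poisson 95% intervals 68.8 to 106 and 46.7 to 78.4) and 102 and 258 in the knockouts (83.2 to 124 and 227 to 291). These intervals cover counting error only, and those of Control 1 and Smad4 Knockout 1 overlap. The log2 fold change was 1.32 (SE 0.49) and 0.63 without Smad4 Knockout 2.

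Dmbt1 (gene ID 12945, chromosome 7, 131032057 to 131121628, plus strand) was at 44.5 and 27.9 CPM in controls, against 84.7 and 97.8 CPM with Smad4 knocked out. Both knockouts were well above both controls, and the gap between genotypes was larger than either gap within a genotype. Group means were 36.2 ± 11.8 CPM (SD, n = 2) for controls and 91.2 ± 9.27 CPM (SD, n = 2) for knockouts, with a log2 fold change of 1.33 (SE 0.23). Without any 1 library the log2 fold change stayed between 1.03 (without Control 2) and 1.71 (without Control 1). Its neighbour Htra1, a secreted serine protease gene, was at 119 and 132 CPM in controls, against 91.3 and 59.4 CPM with Smad4 knocked out, the opposite direction.

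Pigr (gene ID 18703, chromosome 1, 130826684 to 130852249, plus strand) was at 9.59 and 7.11 CPM in controls, against 17.1 and 26.7 CPM with Smad4 knocked out. Group means were 8.35 ± 1.75 CPM (SD, n = 2) for controls and 21.9 ± 6.76 CPM (SD, n = 2) for knockouts. The log2 fold change came to 1.39 (SE 0.26), from 1.05 (without Smad4 Knockout 2) to 1.68 (without Smad4 Knockout 1) with a library left out. The transcript of this immunoglobulin carrier was present while genes of its cargo were not detected, since Igkc, Ighm and Jchain had 0 counts in every library. Fcamr and Fcmr, the flanking genes, which encode receptors for the Fc part of IgM, were at no more than 0.674 CPM in any library.

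Lgals4 (gene ID 16855, chromosome 7, 28833122 to 28841710, plus strand) lies 712 kb from Fcgbp. It was at 260 and 170 CPM in controls, against 305 and 483 CPM with Smad4 knocked out, with Smad4 Knockout 1 close above Control 1 and Smad4 Knockout 2 far above. The log2 fold change was 0.87 (SE 0.28), and 0.52 without Smad4 Knockout 2. Other galectins did not share this direction uniformly. Of 6 other galectin genes tested 4 were above 0 and 2 below, with a median of 0.27 (0.17 without Control 1), and Lgals1 was at 564 and 482 CPM in controls, against 460 and 300 CPM with Smad4 knocked out (a log2 fold change of -0.46, SE 0.21). Lgals8 was at 27.2 and 28.02 CPM (controls) against 33.1 and 35.6 CPM (knockouts) (0.31, SE 0.12).

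Wfdc2 and Lcn2, by contrast, did not separate the genotypes. Wfdc2 (gene ID 67701, chromosome 2, 164562715 to 164568510, plus strand) was at 740 and 761 CPM in controls, against 713 and 767 CPM with Smad4 knocked out. Its log2 fold change of -0.02 (SE 0.10) changed sign in the TPM-based fits (0.01) and without Smad4 Knockout 1 (0.03), and the highest and the lowest library were both knockouts. Lcn2, a siderophore-binding protein that withholds iron from bacteria (gene ID 16819, chromosome 2, 32384637 to 32387739, minus strand), was at 11.4 and 8.21 CPM in controls, against 9.52 and 7.58 CPM with Smad4 knocked out (a log2 fold change of -0.20, SE 0.23). The value was 0.06 without Control 1, -0.42 without Control 2, -0.37 without Smad4 Knockout 1 and -0.03 without Smad4 Knockout 2, so its direction was not settled.

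The differences between libraries of 1 genotype were themselves unlike among the members. Control 1 was above Control 2 in 8 of the 9 members, with ratios from 1.26 (Spdef) to 4.98 (Fcgbp), and Wfdc2 was the exception at 0.973. Smad4 Knockout 2 was the highest of the 4 libraries in 8 of the 9, Lcn2 being the exception. The matching shares of all genes were not computed, so neither count is read as a trait of the members. The gap between the knockouts was largest in Agr2 (2.55 times), Spink4 (2.26 times) and Spdef (1.88 times), and of genes averaging 5 CPM or more 0.333% had a larger gap than Agr2 and 1.21% a larger gap than Spdef. Spink4 lies below that level, where counting error is larger, and is not set against those genes. Pigr (1.56 times) and Lgals4 (1.58 times) were intermediate, and Dmbt1 (1.15 times) and Fcgbp (1.001 times) were nearly level. Agr2, Spink4 and Spdef were therefore mainly high in a single knockout line. Fcgbp, Dmbt1 and Pigr were high in both, and the set was chosen partly on the higher knockout values of Fcgbp and Dmbt1.

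**Figure D3:**
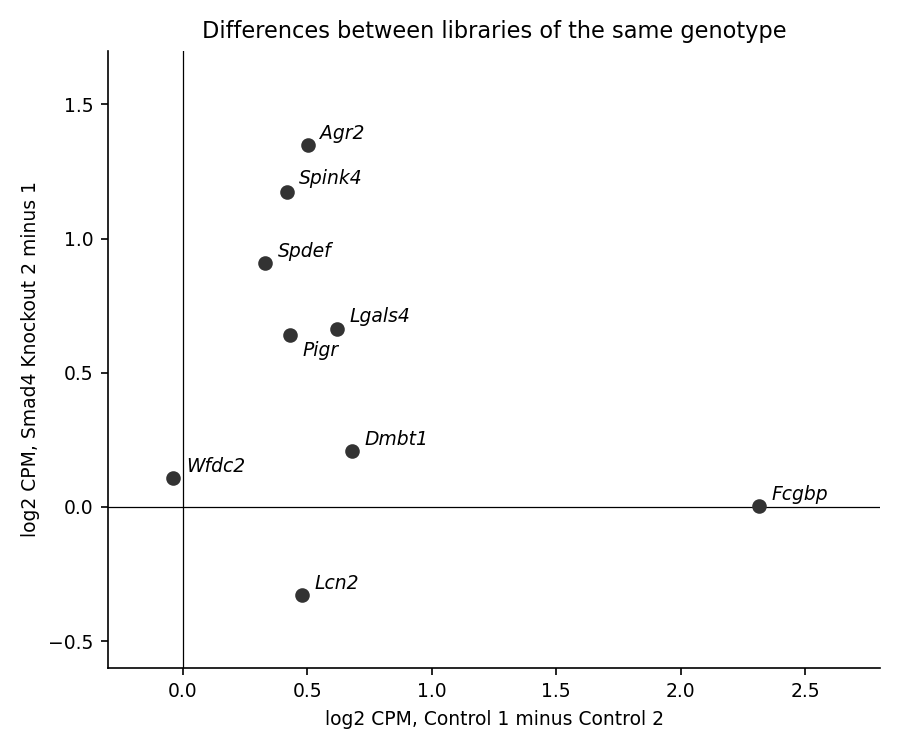
Difference in log2 CPM between the 2 controls (Control 1 minus Control 2, horizontal axis) and between the 2 knockouts (Smad4 Knockout 2 minus 1, vertical axis), with 1 point per member. Fcgbp lies far to the right at 2.32 with a knockout difference of 0.00, Agr2 lies highest at 1.35, and Wfdc2 lies near 0 on both axes.

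With 1 library left out in turn, 7 members lay above both controls or the remaining control in the knockouts without Control 1, 6 without Control 2, 8 without Smad4 Knockout 1 and 6 without Smad4 Knockout 2. The matching shares over all genes were 36.1%, 33.4%, 35.5% and 30%. The median log2 fold change of the members was 1.55, 1.01, 1.43 and 0.57 in the same order, so Smad4 Knockout 2 moved it most.

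**Figure D4:**
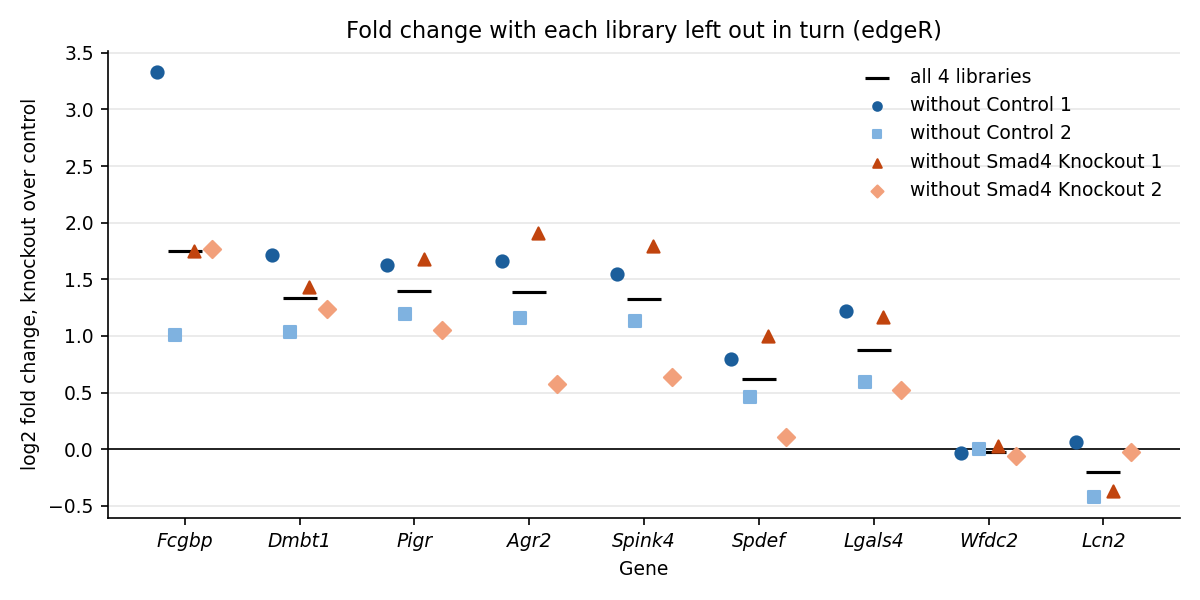
Log2 fold change of knockout over control from edgeR (vertical axis) for 9 members (horizontal axis), with all 4 libraries (black dash) and with each library left out (points). Fcgbp reaches 3.33 without Control 1, and Agr2, Spink4 and Spdef come down to 0.57, 0.63 and 0.11 without Smad4 Knockout 2.

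The mix of transcripts behind each gene was compared by the count per FPKM, which is proportional to the transcript length assumed for a gene once the libraries are scaled on 2726 genes with a single transcript. In Lgals4 it was at 103% of the gene's mean in Control 1 and at 98.9% to 99.1% in the other libraries. In the other 8 members it stayed between 99.2% and 101% of the mean. A gene with 1 annotated transcript cannot shift in this measure. Which members have more than 1 is not given here, so a steady value is not read as a steady mix. These shifts were small beside the fold changes of the members that differed.

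The genes around the members were also compared. Of 18 distinct flanking protein-coding genes that are not members 14 were tested, with a median log2 fold change of -0.02, and in 1 of them, 9530053A07Rik, both knockouts lay above both controls, against 18.2% of all genes.

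Related gene lists were then described by counts, leaving out the members themselves, and no gene of any of them passed edgeR's test over all genes. The products of goblet and gastric mucous cells were mostly higher in the knockouts, with 18 of 19 tested genes above 0, 12 with both knockouts above both controls and 1 with both below, against 18.2% and 18.6% of all genes. Their median log2 fold change was 0.81, also with 2 genes that lacked counts in a whole group held at their bound. Tff3, the intestinal trefoil peptide, was at 0.949 and 0.259 CPM in controls, against 3.05 and 8.95 CPM with Smad4 knocked out (a log2 fold change of 3.31, SE 0.76). Gkn1, a gastrokine of pit cells, was at 2.95 and 2.54 CPM (controls) against 5.87 and 19.97 CPM (knockouts) (2.24, SE 0.56), and Tff2, the trefoil peptide of neck cells, at 17.9 and 12.9 CPM (controls) against 37.6 and 23.4 CPM (knockouts) (0.99, SE 0.27). Galnt12, an enzyme that starts mucin O-glycans, was at 20.3 and 16.8 CPM (controls) against 25.2 and 37.99 CPM (knockouts) (0.77, SE 0.22). DESeq2 called 4 of the list higher and 0 lower, against 0.53% and 0.171% of all genes, but the list was chosen with earlier results known. The median was 1.41 without Control 1, 0.78 without Control 2, 1.38 without Smad4 Knockout 1 and 0.37 without Smad4 Knockout 2. With TPM it was 0.71 over the 12 genes passing the TPM filter, and 0.29 over 22 genes with no filter. Retnlb, Ang4, Capn9 and St6galnac1 had 0 counts in all libraries, and Muc2, the goblet mucin, named after its values were seen, was at no more than 2.53 CPM.

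Transcription factors listed beside Spdef showed smaller differences, with 12 of 13 above 0. Not all of them are drivers of the goblet lineage, and the 12 include Hes1 (0.08, SE 0.19), named after its values were seen. In 5 both knockouts lay above both controls and in 0 both lay below (18.2% and 18.6% of all genes), with a median of 0.24. That median was 0.16 without Control 1, 0.44 without Control 2 and 0.35 without Smad4 Knockout 1. Elf3, an epithelial ETS factor, was at 72.7 and 74.1 CPM in controls, against 88.8 and 120 CPM with Smad4 knocked out (0.51, SE 0.16), and Cdx2 at 24.7 and 19.02 CPM (controls) against 25.9 and 37.4 CPM (knockouts) (0.54, SE 0.22). Nkx6-3, a stomach homeobox factor, was at 9.61 and 3.55 CPM (controls) against 9.97 and 17.9 CPM (knockouts) (1.08, SE 0.50), and Xbp1, a factor of secretory cells, at 104 and 99.2 CPM (controls) against 108 and 119 CPM (knockouts) (0.16, SE 0.10). Foxa3, at -0.34 (SE 0.31), was the 1 gene below 0, and was named after its values were seen.

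The folding machinery that Agr2 belongs to had medians near 0. Of 22 genes for chaperones and transport in the secretory pathway 12 were above 0 and 10 below, with a median of 0.01. Of 16 other disulfide isomerase family genes 8 were above and 8 below, with a median of -0.01. Both medians changed sign with a library left out, staying between -0.06 and 0.06. Sdf2l1, a chaperone component, was at 51.6 and 49.6 CPM in controls, against 40.7 and 43.9 CPM with Smad4 knocked out (-0.26, SE 0.11), and Txndc11 at 35.8 and 35.97 CPM (controls) against 29.8 and 29.6 CPM (knockouts) (-0.27, SE 0.11).

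Other antimicrobial genes of epithelia were mixed, with 9 of 15 tested above 0 and a median of 0.09. In 4 both knockouts lay above both controls and in 1 both lay below, against 18.2% and 18.6% of all genes. The median was 0.56 without Control 1, 0.23 without Smad4 Knockout 2 and -0.03 without Smad4 Knockout 1. With TPM it was 0.34 over the 7 genes passing the TPM filter, and 0.07 over 19 genes with no filter. For the 7 genes averaging 1 CPM or more the edgeR median was 0.26. Pglyrp1, which binds bacterial peptidoglycan, was at 20.3 and 16.2 CPM in controls, against 21.7 and 30.6 CPM with Smad4 knocked out (0.52, SE 0.21), Duox2, a peroxide-making oxidase, at 65.4 and 48.6 CPM (controls) against 69.1 and 70.95 CPM (knockouts) (0.30, SE 0.16), and C3, the complement component, at 140 and 203 CPM (controls) against 172 and 98.97 CPM (knockouts) (-0.34, SE 0.29). Reg3a, S100a8, Saa1, Saa2, Camp, Pla2g2a and Bpifa1 had 0 counts in all libraries. Among 22 regulators of the NF-kB, IL-17, IL-22 and interferon pathways, known for inducing Lcn2 and Pigr, 8 were above 0 and 14 below. In 8 both knockouts lay below both controls and in 2 both lay above, against 18.6% and 18.2% of all genes. The median was -0.09 (-0.02 without Smad4 Knockout 1, -0.06 without Control 2 and -0.05 with TPM). Nfkbia, the NF-kB inhibitor and target, was at 73.9 and 73.8 CPM in controls, against 63.4 and 55.04 CPM with Smad4 knocked out (-0.32, SE 0.11).

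Relatives of Wfdc2, Spink4 and Lcn2 were few. Of 9 tested genes in the list of WFDC, SPINK and other secreted inhibitors 4 were above 0 and 5 below. Their median of -0.24 was 0.01 without Control 2, -0.36 without Smad4 Knockout 1 and -0.04 without Smad4 Knockout 2. With TPM it was 0.07 over the 5 genes passing the TPM filter, and -0.10 over 9 genes without that filter. For the 5 genes averaging 1 CPM or more the edgeR median was 0.04, so the set of genes changed as well as the scale. Wfdc1 was at 5.62 and 3.43 CPM in controls, against 4.91 and 12.5 CPM with Smad4 knocked out (0.95, SE 0.48), again highest in Smad4 Knockout 2, and Spink2 at 2.96 and 2.77 CPM (controls) against 1.74 and 2.19 CPM (knockouts) (-0.55, SE 0.27). Spink1, Spink5, Spink6, Spink8, Wfdc5, Wfdc12 and Wfdc15b had 0 counts in all libraries. Of the other lipocalins listed, Ptgds (-0.58, SE 0.39) and Rbp4 (-0.02, SE 0.13) were tested.

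**Figure D5:**
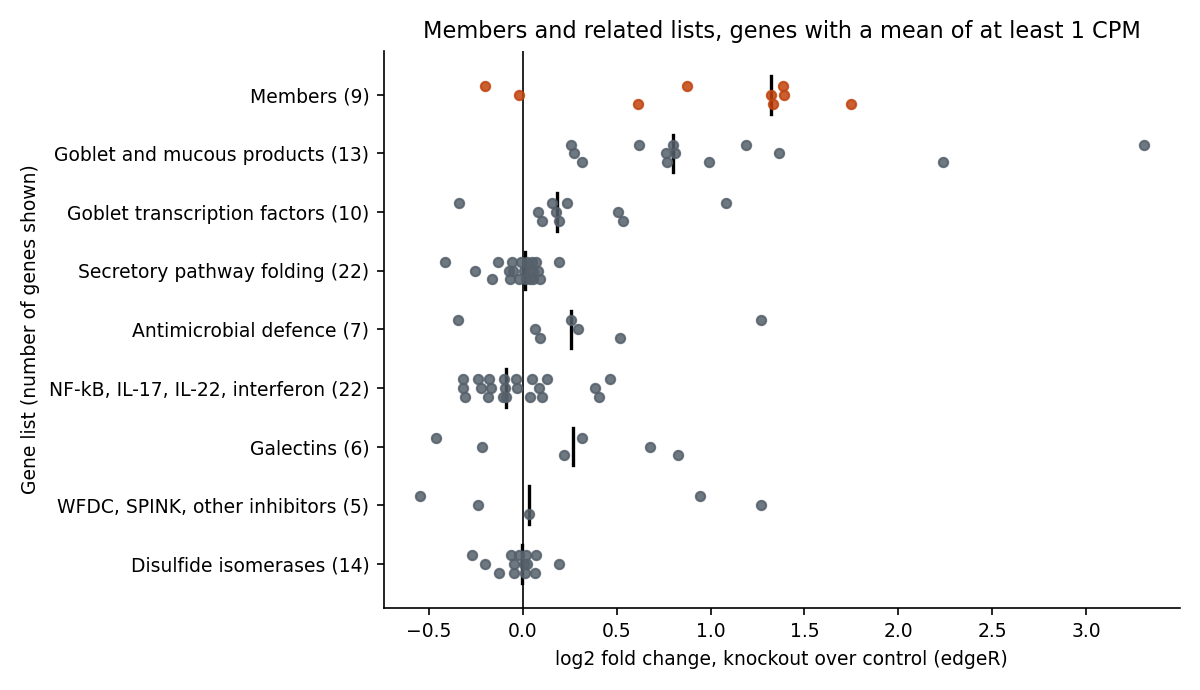
Log2 fold change of knockout over control from edgeR (horizontal axis) for the members and 8 related lists (rows, number of genes in brackets), for genes averaging 1 CPM or more, with 1 point per gene and a black bar at the median of the genes shown. The members (median 1.32) and the goblet and mucous products (median 0.80 for the 13 shown) lie to the right of 0, and the secretory folding and disulfide isomerase lists lie around 0.

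Markers of cell types were summed per library, since in bulk RNA fewer cells of a type and less RNA per cell cannot be told apart. Pit cell markers (5 of 5 above 0) summed to 51.3 and 31.6 CPM in controls, against 54.6 and 144 CPM with Smad4 knocked out. This is the same order of libraries as in the 6 members above. The sums of intestinal goblet, enterocyte, squamous and Paneth cell markers, given below, had that order too, so it was not particular to pit cell markers. Tff1 and Gkn3 gave most of the sum, and Gkn3 was at 21.9 and 11.8 CPM (controls) against 15.6 and 59.2 CPM (knockouts). Intestinal goblet cell markers summed to 186 and 63.6 CPM in controls, against 294 and 358 CPM with Smad4 knocked out, nearly all from Clca1, which at 184 and 63.02 CPM (controls) against 291 and 345 CPM (knockouts) was low in Control 2, as Fcgbp was. Enterocyte markers, mostly Cdh17 and Vil1, summed to 82.3 and 43.6 CPM (controls) against 127 and 167 CPM (knockouts), with Fabp1, Sis and Apoa4 at 0. Within this sum Cdh17, a cadherin of gut epithelium, was at 29.2 and 15.6 CPM (controls) against 73.2 and 113 CPM (knockouts). Vil1 was at 52.8 and 27.7 CPM (controls) against 53.8 and 52.6 CPM (knockouts). Both knockouts were thus near Control 1 in Vil1, with Control 2 alone low. Squamous markers, mostly Krt4, summed to 127 and 98.4 CPM (controls) against 204 and 268 CPM (knockouts). Paneth cell markers summed to 0.745 and 0.183 CPM (controls) against 2.43 and 3.25 CPM (knockouts), nearly all from the protease gene Mmp7, with Defa24 and Defa30 at 0. Neck cell markers, mostly Aqp5 and Cftr, summed to 339 to 367 CPM, a total made of opposite differences. Of the 5, 2 had both knockouts above both controls and 3 had both below, against 18.2% and 18.6% of all genes. Cftr, a chloride channel, was at 70.7 and 51.9 CPM (controls) against 88.8 and 101 CPM (knockouts), and Aqp5, a water channel, at 204 and 211 CPM (controls) against 186 and 183 CPM (knockouts). The part of these shifts in the values of the members was not tested. Markers of chief, parietal and enteroendocrine cells summed to at most 0.787, 4.18 and 0.0463 CPM.

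Markers of blood and stromal cells were mostly low or at 0. Of 9 neutrophil markers, a cell type known for its Lcn2, 7 had 0 counts in all libraries, S100a9 was at no more than 0.296 CPM, and the sum of 200 to 239 CPM came from Ltf, which epithelia also make. Of 8 B and plasma cell markers 7 were at 0. Macrophage markers summed to 105 to 140 CPM, nearly all from Cd14, with C1qa and C1qb at 0, and pan-leukocyte markers to 1.98 to 4.26 CPM. Fibroblast markers summed to 2.65 and 3.58 CPM in controls, against 2.00 and 1.10 CPM with Smad4 knocked out, and endothelial markers to 3.10 to 5.71 CPM.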

How the data were processed

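RNA libraries of 4 organoid lines, 2 per genotype label, were made with a stranded total RNA kit, per the labels' protocols. The submitters' processing notes list the aligner HISAT2 2.1.0, the assembler StringTie 2.1.3b, Trimmomatic, bcl2fastq 2.20.0 and the mm10 build. How strand was set and how reads were counted is not stated. The authors deposited, per the file headers, 3 columns for each of 45777 genes, holding read counts, FPKM and TPM, and the whole-number counts were treated as estimated counts. The columns of Control 2 carry its title with an added 2, and whether they are a repeat run is not stated. A total of 1 FPKM column that repeats another library's was not used. Spreadsheet dates in 26 gene symbols were restored from gene IDs.

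The quasi-likelihood test of edgeR 4.0.16 (R 4.3.3) was fitted to 18115 genes that passed filterByExpr at a minimum count of 10, with TMM scaling and a genotype term. CPM uses the TMM-scaled library sizes. SD and SE rest on 2 libraries per group. Alternatives were RLE scaling, no filter, DESeq2 1.42.0, limma 3.58.1 on log2(TPM + 1) for genes reaching 1 TPM in 2 or more libraries, a pseudocount of 0.1 and no TPM filter, robust moderation, dropping histone, ribosomal protein and mitochondrial genes, and each library left out in turn. The fits were tested on simulated data. The members and lists were chosen with earlier results of these data known. Named from each list were up to 4 genes with the smallest p among those with a mean of at least 1 CPM, and 2 genes per marker list. Not every gene this rule picks is reported here. Of 244 listed names 1 (Lgals6) did not match. No protein sequences were used here.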

Additional observations from a re-analysis of the deposited data

How the results depend on the processing

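RLE scaling, no filter on low counts, DESeq2, the 3 limma fits on TPM, robust moderation and dropping histone, ribosomal protein and mitochondrial genes each moved the log2 fold change of all 9 members by less than the spread between libraries, and their median stayed between 1.05 and 1.33. In the limma fits on TPM the value of Wfdc2 was above 0. Over all genes DESeq2 called 96 higher and 31 lower where edgeR and limma called 0. With a library left out, edgeR called from 0 to 48 genes higher and from 0 to 44 lower, most of them without Smad4 Knockout 1 (the cause was not tested). A group left with 1 library was assumed to vary like the other. The median of the members ranged from 0.57 to 1.55 with a library left out. The members past their spread between libraries were Fcgbp (3.33) and Dmbt1 (1.71) without Control 1, and Agr2 (0.57), Spdef (0.11) and Spink4 (0.63) without Smad4 Knockout 2. No paired analysis was possible because the labels give the libraries no shared replicate numbers. Counting error was widest for Spink4, and for Agr3 only an upper limit could be given.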
